A study of Homo sapiens with 2 samples.

Results

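The 49 MRPL genes encode proteins of the large subunit of the mitochondrial ribosome. They were chosen by name, as members of 1 complex, with the knowledge that MRPL16 and MRPL21 had well supported peaks, and were followed among the 19866 protein-coding genes on chromosomes in a peak list for NUSAP1, a nucleolar and spindle-associated protein that binds microtubules and chromatin. NUSAP1 chromatin came from AsPC1 cells, an established human pancreatic ductal adenocarcinoma line, unmodified and untreated as far as the labels state, in 1 immunoprecipitated library with 1 library of input chromatin from the same line. There was no replicate, no control antibody and no second condition, so single summits had no test but the q of the peak caller, and every share given here describes this list alone. The list gives no library totals, and the depth behind a summit is given as the fragments counted there.

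Mitochondrial ribosomes translate the few mRNAs encoded by mitochondrial DNA, which specify core subunits of the respiratory chain and ATP synthase. Their large subunit holds the peptidyl transferase centre, and its nucleus-encoded proteins are made in the cytosol and imported. The MRPL genes are scattered over the nuclear chromosomes and are mostly short, with promoters of the housekeeping kind.

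NUSAP1 summits lay in or within 1 kb of 5 of the 49 MRPL genes: MRPL16, MRPL41, MRPL21, MRPL35 and MRPL3. That is 10.2% of them, beside 13.6% of all protein-coding genes and 6.36% of short genes in similar surroundings, which are described further on. In each of these 5 the summit was within 250 bp of an end of the gene. For MRPL3, MRPL16 and MRPL41 the start of the gene was known from the RefSeq promoter table (GRCh38.p14, the same build as hg38), and the summit lay 68, 29 and 2 bp upstream of it. The sequences below are shown because these summits fall within them. They are the 250 bases before the start, 5' to 3' on the strand of the gene, at chr3:131502972-131503221 on the minus strand for MRPL3, chr11:59810779-59811028 on the minus strand for MRPL16 and chr9:137551629-137551878 on the plus strand for MRPL41. Capitals mark matches, on either strand, to the motifs described after the sequences.
MRPL3: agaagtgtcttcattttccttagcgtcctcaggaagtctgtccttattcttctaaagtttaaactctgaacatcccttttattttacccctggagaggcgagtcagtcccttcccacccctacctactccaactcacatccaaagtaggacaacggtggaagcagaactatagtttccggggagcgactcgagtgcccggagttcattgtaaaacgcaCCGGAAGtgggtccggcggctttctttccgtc
MRPL16: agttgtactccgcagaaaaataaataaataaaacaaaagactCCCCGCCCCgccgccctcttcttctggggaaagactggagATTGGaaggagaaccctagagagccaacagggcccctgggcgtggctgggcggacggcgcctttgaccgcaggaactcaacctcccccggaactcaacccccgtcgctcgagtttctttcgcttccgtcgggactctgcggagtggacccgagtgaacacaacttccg
MRPL41: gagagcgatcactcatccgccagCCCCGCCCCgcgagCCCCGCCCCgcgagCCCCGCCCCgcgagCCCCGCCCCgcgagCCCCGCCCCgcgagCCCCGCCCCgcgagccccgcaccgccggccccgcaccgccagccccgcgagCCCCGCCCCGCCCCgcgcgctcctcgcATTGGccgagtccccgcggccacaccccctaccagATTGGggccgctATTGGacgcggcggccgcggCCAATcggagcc

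A set of 6 short motifs common in promoters was searched on both strands of the 300 bases from 250 before the start to 50 from the start on: CCGGAAG for ETS factors, GCGCA and GCGC with 1 base (N) between them for NRF1, a regulator of nuclear genes for mitochondrial proteins, AANATGGCG for YY1, CCAAT, GGGGCGGGG for SP1 and TATAAA. The MRPL3 window held 1 CCGGAAG match, from 32 to 26 bases before the start and so between the summit and the start. MRPL16 held 1 CCGGAAG match on the opposite strand, running from 6 bases before the start to the start base itself, so that its last base lies beyond the printed stretch and the match is not in capitals, together with 1 CCAAT and 1 GGGGCGGGG match, on the opposite strand. MRPL41 held 8 GGGGCGGGG matches on the opposite strand, 2 of which overlap, in a repeated stretch between 227 and 93 bases before the start, and 4 CCAAT matches between 79 and 8 bases before it. None of the 3 windows held a match to the NRF1, YY1 or TATAAA letters. A match is a match of letters, not a site.

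Across the 42 MRPL genes with an entry in the promoter table, 17 (40.5%) held CCGGAAG, against 14.2% of 15840 protein-coding promoters of the same length. For AANATGGCG the shares were 11 of 42 (26.2%) against 4.81%, for the NRF1 letters 6 (14.3%) against 8.57%, for GGGGCGGGG 9 (21.4%) against 22.3%, for CCAAT 11 (26.2%) against 36.4% and for TATAAA 1 (2.38%) against 9.63%. Among the 132 protein-coding promoters with a NUSAP1 summit within 250 bp of the start, 27.3% held CCGGAAG and 3.79% held AANATGGCG. For the NRF1 letters it was 12.1%, for GGGGCGGGG 22.7%, for CCAAT 29.5% and for TATAAA 1.52%. No link between these motifs and the summits was tested. MRPL2, MRPL10, MRPL13, MRPL15, MRPL21, MRPL23 and MRPL35 were not matched in the promoter table.

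The 5 peaks differed in strength. MRPL16 (gene ID 54948, chromosome 11, 59806140 to 59810778) encodes the protein known as uL16, which sits where tRNAs pass through the large subunit. Its peak spanned 59810702 to 59810956 (255 bp), with 10 fragments at the summit over an expected background of 0.977, a 5.56-fold enrichment and q 0.00158. Fold enrichment here is the caller's ratio of the summit to its local background. Whether that background was taken from the input library or from the immunoprecipitate itself is not given in the sources used here, so the folds printed here are not known to be ratios to input. MRPL16 ranked 18 by fold among all 9043 summits, and 3 among the 167 protein-coding genes with a summit within 250 bp of an end. No other gene lay within 1 kb of this summit. STX3, a syntaxin gene, lay 4929 bp away beyond the far side of MRPL16.

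MRPL21 (gene ID 219927, chromosome 11, 68891278 to 68903832), the gene of bL21, had the most fragments of the 5. Its peak spanned 68903793 to 68904071 (279 bp), and 14 fragments stood over a background of 2.85, 3.90-fold enriched (q 0.0406). The background was 4.02 times the lowest in the list, the highest among the 5, and its fold was below that of MRPL41, which had fewer fragments. The part of this raised background in the result was not tested. The summit lay 94 bp beyond the upper end of MRPL21 and 35 bp inside IGHMBP2, a helicase gene, so the peak cannot be given to 1 of the 2 genes.

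MRPL41 (gene ID 64975, chromosome 9, 137551879 to 137552555) is the shortest MRPL gene, with 0.677 kb, and encodes a protein without a bacterial relative. Its summit, in a peak of 243 bp, had 7 fragments over a background of 0.821 (fold enrichment 4.39, q 0.162). Rank 14 by fold among the 167 genes with a summit at an end placed it below MRPL16 alone among the MRPL genes, and q did not pass 0.05. The long non-coding RNA gene LOC124902317 lay 650 bp away, overlapping the far end of MRPL41, and PNPLA7, a phospholipase gene, lay 1475 bp away. DPH7, of the diphthamide pathway, lay 2567 bp away.

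MRPL35 (gene ID 51318, chromosome 2, 86199433 to 86213794), the gene of bL35, held its summit 175 bp inside the lower end, and it was the sole MRPL gene with a summit in the body. There 9 fragments stood over 1.66 (fold enrichment 3.76, q 0.418). IMMT, which encodes a scaffold protein of the mitochondrial inner membrane, lay 4146 bp away, and no other gene lay within 1 kb of the summit. MRPL3 (gene ID 11222, chromosome 3, 131462212 to 131502971) encodes uL3, a protein near the peptidyl transferase centre, and had the lowest fold of the 5: 8 fragments over 1.70, 3.33-fold (q 0.703). Its summit also lay 440 bp inside LOC105374114, a long non-coding RNA gene that overlaps the start of MRPL3.

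**Figure D1:**
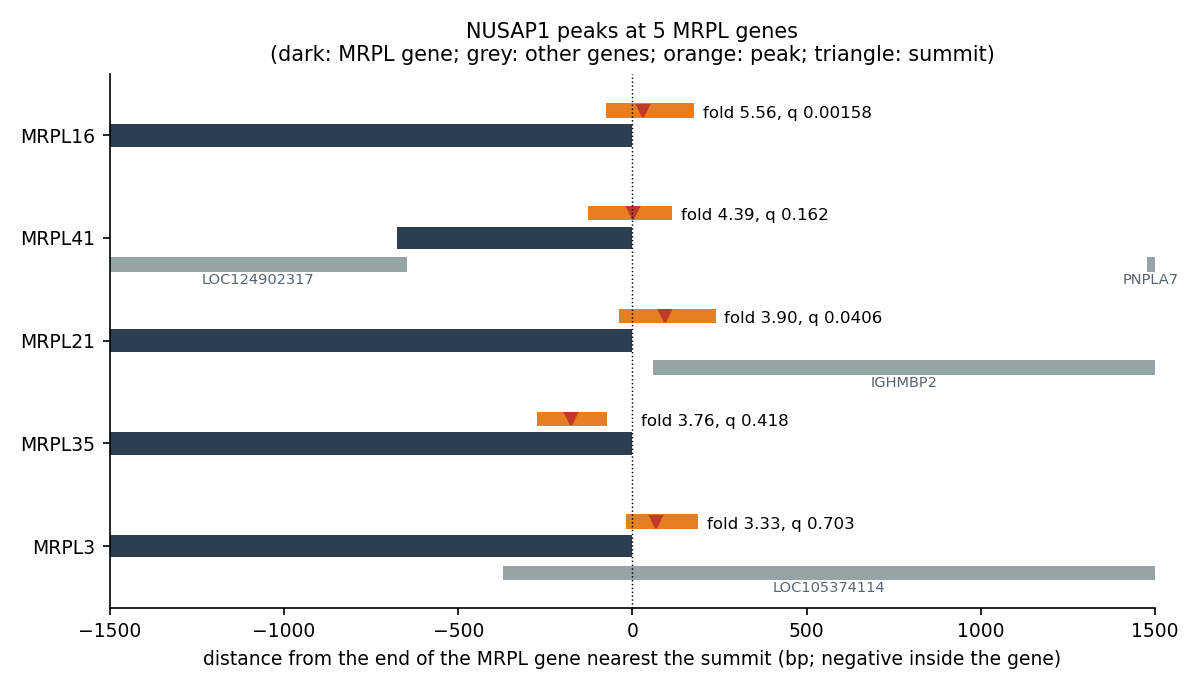
The horizontal axis gives the distance in bp from the end of the MRPL gene nearest the summit, negative inside the gene, for the 5 MRPL genes with a summit within 1 kb; dark bars are the MRPL genes, grey bars other genes, orange bars the deposited peaks and triangles their summits. Summits sit between 175 bp inside (MRPL35) and 94 bp outside (MRPL21), and the MRPL21 and MRPL3 peaks also lie on a neighbouring gene.

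MRPL16 and MRPL21 were among the genes for their well supported peaks, so their strength is a description. The 3 others, MRPL41, MRPL35 and MRPL3, had 7, 9 and 8 fragments, while the list had a median of 5 and 12.2% of its summits had 7 or more. MRPL35 and MRPL3 lay at backgrounds of 1.66 and 1.70, and no summit with 5 fragments or fewer was listed above a background of 1.53. A summit listed at their backgrounds thus had more fragments than the median, and the part of background in these counts was not tested. Among the 167 protein-coding genes with a summit within 250 bp of an end, 67 (40.1%) had 7 or more. Fold enrichments of these 3 had a median of 3.76 (3.90 with MRPL16 and MRPL21), beside 3.23 (quartiles 2.80 and 3.71) over those 167 genes, where MRPL35 ranked 39 and MRPL3 ranked 69. No summit with fewer than 8 fragments reached q under 0.05 anywhere in the list, and MRPL41 had 7.

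**Figure D2:**
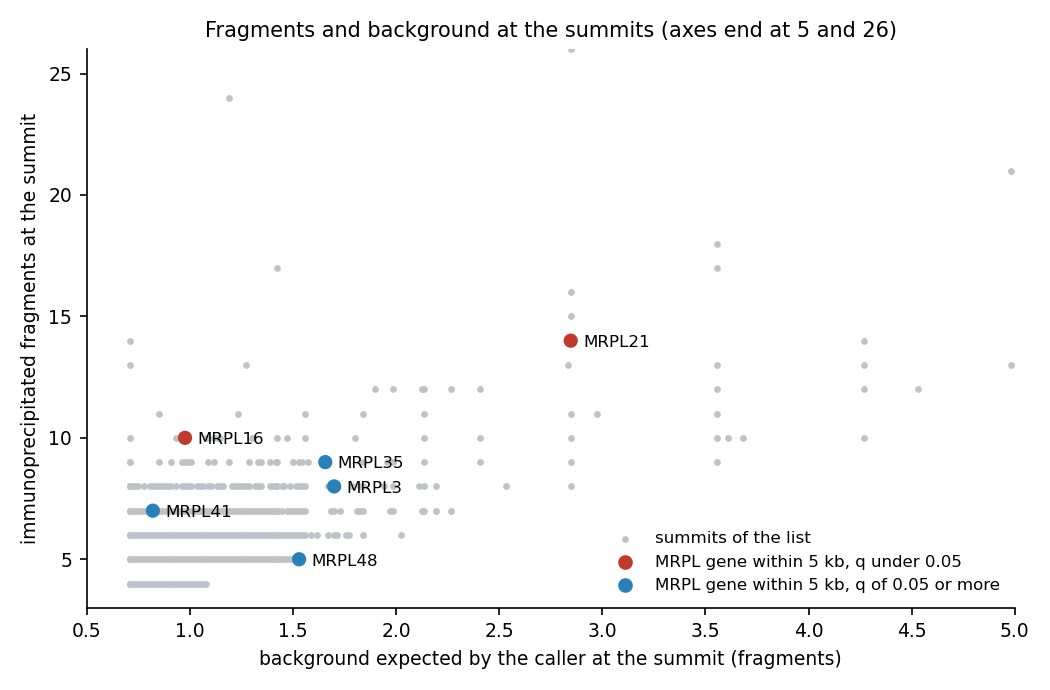
Immunoprecipitated fragments at the summit (vertical axis) against the background the caller expected there (horizontal axis, in fragments). Grey points are combinations found in the list, each standing for 1 or more of its summits; coloured points are the summits within 5 kb of an MRPL gene. MRPL16 has 10 fragments at a background of 0.977, MRPL21 has 14 at 2.85, and MRPL48 sits with 5 at the lower edge of the list.

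Seen as a count in or within 1 kb of the gene, 5 of 49 MRPL genes is 10.2% (95% Wilson interval 4.44 to 21.8, counting error only). Over all protein-coding genes the percentage was 13.6, but long genes hold more summits by their size, and MRPL genes had a median length of 8.11 kb against 24.5 kb. A closer background was the 8870 other protein-coding genes between 2.89 and 42.3 kb long with 4 to 32 summits within 2.5 Mb. These limits hold the middle of the MRPL genes, 35 of the 49, with MRPL16 and MRPL21 among them. MRPL41 is shorter, and MRPL3 and MRPL35 have 41 and 35 summits within 2.5 Mb, so these 3 lie outside the limits. Of these short genes, 6.36% had a summit in or within 1 kb of the gene. Without MRPL16 and MRPL21, whose peaks were known when the genes were chosen, 3 of 47 MRPL genes were left (6.38%, interval 2.19 to 17.2), a share at the background. The count alone is therefore no result about the MRPL genes.

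Where the summits lay gave another picture. All 5 MRPL genes with a summit in or within 1 kb of the gene (3 of 3 without MRPL16 and MRPL21) had it within 250 bp of an end. This held for 15.1% of the 564 short genes and 6.18% of the 2702 protein-coding genes with such a summit. A shorter gene has more of its length near an end. The short genes had a median length of 14.2 kb against 8.11 kb for MRPL genes, and MRPL41 has 0.677 kb. Among 47 genes of the cytosolic large ribosomal subunit (median 5.06 kb), 3 had such a summit, 2 of them at an end. The part of gene length in the contrast was not tested. As a share of all genes, a summit within 250 bp of an end was found at 5 of 49 MRPL genes (10.2%), or 3 of 47 without the 2 known ones (6.38%, interval 2.19 to 17.2). Beside these stood 0.958% of the short genes and 0.841% of all protein-coding genes. The 3 all lie outside the length and density limits of the short genes. Inside those limits, MRPL16 and MRPL21 were the only MRPL genes with such a summit. Over the whole range of MRPL lengths and densities the share of other protein-coding genes was 0.851%. With 7 or more fragments required, the counts in or within 1 kb of the gene stayed at 5 of 49 and 3 of 47, beside 1.25% of short genes and 2.40% of all. This limit equals the lowest value of the 5, that of MRPL41, so it could remove none of them, and nothing is read from the unchanged counts. Within the body itself there was 1 of 49 (2.04%), beside 5.33% and 12.8%. The 250 bp limit was chosen after these positions had been seen, and MRPL genes were not tested against other genes.

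At the known starts the summits were on 1 side of the genes. Of the 42 MRPL genes with a known start, 3 (7.14%, interval 2.46 to 19.0) had a summit within 250 bp of it, or 2 of 41 (4.88%, interval 1.35 to 16.1) without MRPL16, and none had a summit within 250 bp of the other end. In the short genes with a known start the percentages were 0.976 and 0.127, and over all protein-coding genes with a known start 0.833 and 0.120. MRPL3 and MRPL41 lie outside the limits of these short genes. Promoters rich in G and C had summits more often: 0.350% of the 5432 promoters with up to 57.7% GC, 0.930% of 5268 with 58.0 to 67.7% and 1.25% of 5140 above that. MRPL promoters had a median GC of 61.3%, beside 62.7% over all these promoters. MRPL3 (52.3%), MRPL16 (59.0%) and MRPL41 (80.7%) fell in the lowest, middle and highest class.

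**Figure D3:**
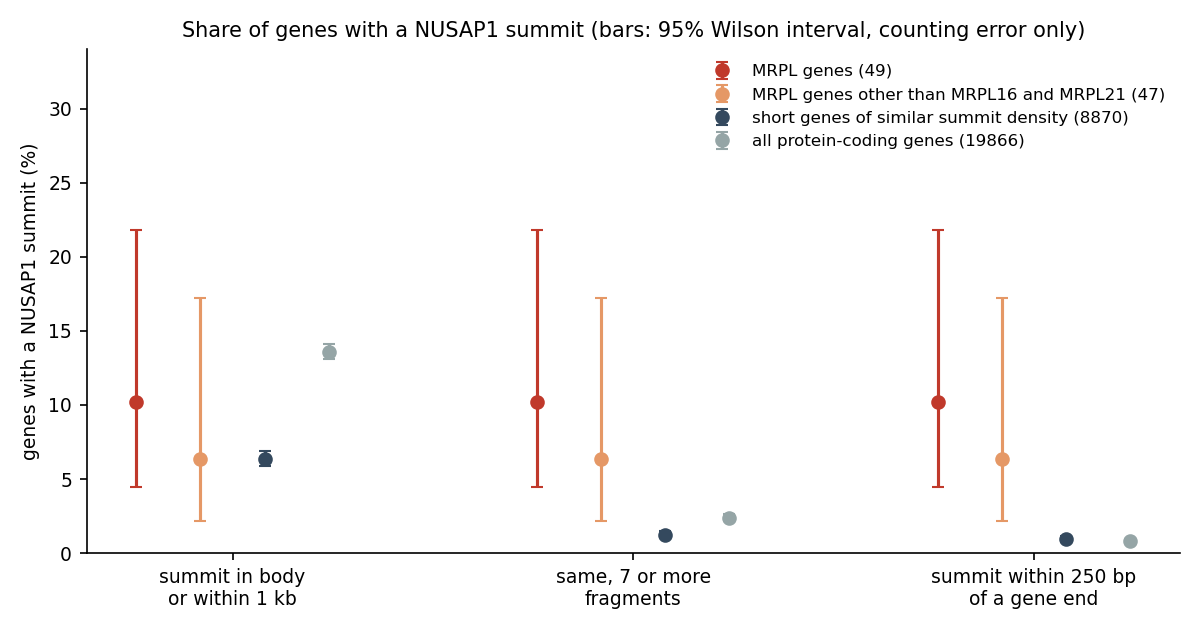
Percentage of genes with a NUSAP1 summit (vertical axis) by 3 definitions, for the 49 MRPL genes, the 47 without MRPL16 and MRPL21, the 8870 short genes of similar summit density and all 19866 protein-coding genes; points are shares and bars 95% Wilson intervals. MRPL shares equal 10.2% in all 3 definitions (6.38% without MRPL16 and MRPL21), and those of the short genes go from 6.36% to 1.25% and 0.958%. The limit on fragments equals the lowest MRPL value, and the distance from an end was chosen after the positions had been seen. Nothing is therefore read from the unchanged MRPL shares. MRPL3, MRPL35 and MRPL41 also lie outside the length and density limits of the short genes.

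Local summit density varied among the MRPL genes from 2 to 47 summits within 2.5 Mb. Of the 16 MRPL genes with 25 to 47, 4 (25%, interval 10.2 to 49.5) had a summit in or within 1 kb of the gene, namely MRPL3, MRPL16, MRPL21 and MRPL35. Without MRPL16 and MRPL21, known when the genes were chosen, it was 2 of 14 (14.3%, interval 4.01 to 39.9). Beside these stood 10.0% of the 2104 short genes with 25 or more. Short genes here are limited by length alone, and their outer classes have no outer limit of density. None of the 16 with 15 to 24 had such a summit (interval 0 to 19.4), beside 7.77% of short genes. Among the 17 with 2 to 14 there was 1 (5.88%, interval 1.05 to 27.0), beside 3.07% of short genes with 14 or fewer. That MRPL gene was MRPL41, with 4 summits within 2.5 Mb. MRPL13, in the densest surroundings with 47, had its nearest summit at 74.1 kb.

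By place in the ribosome, the peaks were spread over 3 of 6 classes. Over all protein-coding genes 13.6% had a summit in or within 1 kb and 15.6% in or within 5 kb. For the short genes these shares were 6.36% and 8.57%. MRPL16 and MRPL21 were known when the genes were chosen, so nothing is read from the counts that hold them. At the subunit interface and along the tRNA path, 2 of 6 genes (MRPL3 and MRPL16) had a summit within 1 kb, and MRPL2 (uL2) had its nearest at 9.33 kb and MRPL14 (uL14) at 319 kb. None of the 5 stalk genes had a summit within 5 kb. MRPL1, of the L1 stalk, stood 555 kb away and MRPL10, which anchors the factor-binding stalk, 816 kb, the farthest of all. None of the 9 genes of the exit tunnel, through which the new peptide leaves, had a summit within 5 kb. Their nearest summits were between 25.1 and 319 kb away, with MRPL4 at 161 kb and MRPL17 at 109 kb. Of the 5 genes of the central protuberance, MRPL18 stood at 40.1 kb and MRPL38 at 49984 bp, and MRPL48 had a summit within 5 kb. Among the 11 other genes with a bacterial relative, which include MRPL21 and MRPL35, MRPL9 stood at 18.5 kb and MRPL13 at 74.1 kb. The 13 other mitochondrion-specific genes had MRPL41 as their single gene within 5 kb, with MRPL37 at 210.5 kb and MRPL39 at 24.2 kb. With 5 to 13 genes per class, these counts do not separate the classes.

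**Figure D4:**
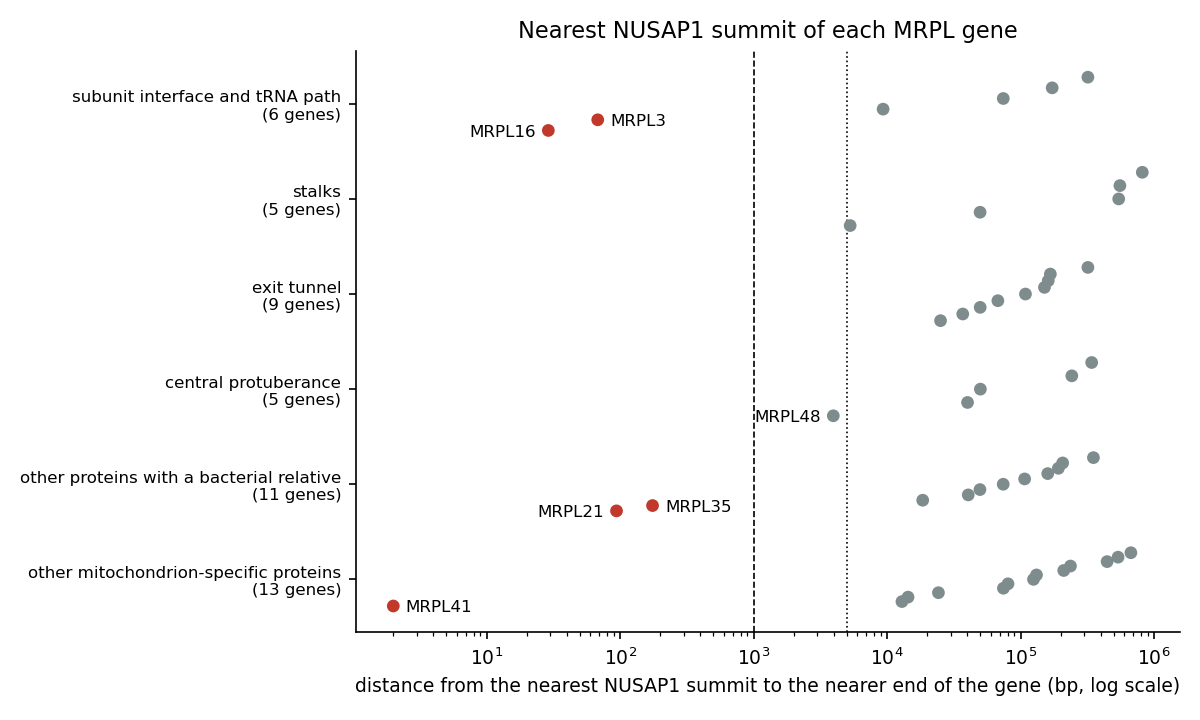
Distance in bp on a log scale from the nearest NUSAP1 summit to the nearer end of each of the 49 MRPL genes, by place in the ribosome; height within a class only keeps points apart, red marks a summit within 1 kb, and the dashed and dotted lines stand at 1 kb and 5 kb. The 5 red points lie between 2 and 175 bp, and no gene lies between 175 and 3954 bp.

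Between the MRPL genes with a summit at an end and the rest there was a wide gap. MRPL35, at 175 bp, was the last inside 1 kb, and the next gene was MRPL48, whose summit lay 3954 bp upstream of its start with 5 fragments over 1.53 (fold enrichment 2.37, q 1). It brought the count within 5 kb to 6 of 49 (12.2%), beside 8.57% of short genes and 15.6% of all protein-coding genes. Without MRPL16 and MRPL21 the count was 4 of 47 (8.51%, interval 3.36 to 19.9), a share at that of the short genes. This count, too, is no result about the MRPL genes. Just outside 5 kb was MRPL12, of the factor-binding stalk, at 5288 bp. That summit (fold enrichment 2.89, q 0.944) lay 521 bp inside SLC25A10, the gene of the mitochondrial dicarboxylate carrier. The MRPL2 summit at 9333 bp lay inside CUL7, a cullin gene, and LOC124901318. Of the 43 MRPL genes beyond 5 kb, 14 had a summit within 50 kb and 29 had none there, 5 of which had none within 500 kb. The median distance of all 49 was 80.5 kb, against 105 kb for the short genes. Without MRPL16 and MRPL21, known when the genes were chosen, the middle distance was that of MRPL15, 107 kb. Nothing is read from the difference in medians. For 34 of the 49, some further gene, coding or lncRNA, lay within 1 kb of the MRPL gene. The same count was not made over other protein-coding genes, so it is not read as a trait of MRPL genes. Of the 5 summits within 1 kb of an MRPL gene, those of MRPL16 and MRPL35 had no other gene within 1 kb.

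At q under 0.05, 2 of 49 MRPL genes had a summit in or within 1 kb of the gene, beside 0.186% of all protein-coding genes and 0.158% of short genes. These 2, MRPL16 and MRPL21, were known when the genes were chosen, and nothing is read from that count. None of the other 47 passed.

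The partners of these proteins came from lists of genes for mitochondrial translation. None of the 30 genes of the small mitochondrial ribosomal subunit had a summit within 250 bp of an end, and 1 (MRPS6) had it in or within 1 kb of the gene, 614 bp downstream of the start (fold enrichment 3.01, q 0.914). Over all protein-coding genes these shares were 0.841% and 13.6%, and a count of 0 of 30 at an end is near that background. The 3 large subunit proteins with other names, GADD45GIP1, MRPS30 and MRPS18A, had none within 5 kb. Among 41 assembly and translation factors, 2 (4.88%) had a summit within 250 bp of an end. They were MTERF4, which works with a methyltransferase in large subunit assembly, 129 bp upstream of the start (2.74-fold, q 1), and MRM1, a methyltransferase of the large subunit rRNA, 145 bp upstream (2.86-fold, q 1). A further 3 of the 41 had a summit in or within 1 kb of the gene. TFB1M, which dimethylates the small subunit rRNA, held the strongest of these, 32614 bp from the start in a gene of 84.6 kb, with 9 fragments over 0.991 (fold enrichment 5.02, q 0.0144). MTG1, a GTPase of large subunit assembly, had 2 summits, the better with a fold of 2.66 (q 1).

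Of 22 genes of mitochondrial aminoacyl-tRNA synthetases and the related amidotransferase, 4 had summits in the body, none within 250 bp of an end: FARS2, NARS2, GARS1 and QRSL1, with fold enrichments from 2.89 to 3.46 and q of 0.779 or more. These genes are long, with a median of 35.2 kb, and their 18.2% stands beside 12.8% of all protein-coding genes with a summit in the body. Of 12 genes for mitochondrial DNA transcription and replication, MGME1, a nuclease, and TFB2M, a transcription factor, had a summit in or within 1 kb of the gene (2.95- and 2.41-fold), again none within 250 bp of an end. In the cytosolic large subunit, 2 of 47 genes (4.26%) had a summit within 250 bp of an end, beside 0.841% of all protein-coding genes. They were RPL4 and RPL35, 3.26- and 2.89-fold (q 0.779 and 0.944), with 6 fragments each. RPL6 had a summit 504 bp from an end (q 1). Without MRPL16 and MRPL21, 3 of 47 MRPL genes (6.38%) had a summit within 250 bp of an end. Beside them stood 4.26% of the cytosolic genes and 4.88% of the assembly and translation factors, so such summits were not particular to MRPL genes. The difference from these lists, with 0 to 2 genes each, was not tested.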

How the data were processed

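Chromatin immunoprecipitation with sequencing was analysed from 1 NUSAP1 library; input chromatin, the other of the 2 samples, has no file used here. Per the submitters' processing notes, bcl2fastq 2.17, Trimmomatic 0.33, Bowtie 1.1.2 and MACS2 2.1.0 were used with build hg38; settings are not given in the sources used here. In the deposited columns are a score (-log10 p times 10, rounded down, in each of 9043 lines), fold enrichment as a ratio, -log10 p and -log10 q from the authors' caller, and, as an other deposited column, the summit offset in bp. No listed p exceeds 0.00497. Positions count from 1.

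Fragments and background per summit were worked out from fold, read as (fragments + 1) over (background + 1), and the Poisson p; all 9043 were reproduced within 0.001, and the script was tested on simulated data. The lowest background was 0.708.

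Genes came from RefSeq (GRCh38.p14), all 49 MRPL symbols matched; starts were known for 42 of them and 79.7% of protein-coding genes, and 2 promoters with other letters were left out. Short genes lie between the 10th and 90th percentiles of MRPL length and of summits within 2.5 Mb. Genes named are all MRPL genes with a summit within 5 kb and those just outside, the first 2 by number without 1 in each role class, genes sharing a summit, and list members with a summit, up to 4 per list. The genes within 5 kb but beyond 1 kb of a summit (STX3, PNPLA7, DPH7, IMMT), SLC25A10, CUL7, LOC124901318, values without MRPL16 and MRPL21 and the motif shares among promoters with a summit were added after values were seen. Members and lists were chosen with earlier results of these data known. Alternatives were limits on q, fold, fragments and background, peak overlap, merging, windows and density ranges. Tools were scipy 1.17.1, numpy 2.4.6, pandas 2.3.3 and matplotlib 3.10.9 in Python 3.11.15.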

Additional observations from a re-analysis of the deposited data

How the results depend on the processing

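Stricter limits keep fewer summits by construction. With q under 0.05, 2 MRPL genes were left within 1 kb, within 5 kb and within 250 bp of an end (MRPL16 and MRPL21), 0 in the body, and the shares of short genes were 0.158% (1 kb) and 0.0676% (250 bp). At a fold enrichment of at least 4 the counts were 2, 2, 2 (MRPL16 and MRPL41) and 0, with 0.552% and 0.135%. With 7 or more fragments, the lowest value among the 5 MRPL genes, all 5 stayed, and the short genes fell to 1.25% and 0.383%. With the background kept under 3 times its lowest value, MRPL21 was lost, leaving 4 genes within 1 kb. Counting any overlap of the peak gave 5 MRPL genes in the body and 1.27% of short genes within 250 bp of an end. The short-gene share within 1 kb was 7% with density counted within 5 Mb and 7.99% over the whole range of MRPL lengths and densities. Without MRPL16 and MRPL21 the counts within 1 kb and within 250 bp of an end were both 3. In all, 28 values moved little, some of them given above, and 20 moved more. The 250 bp limit and its alternatives were added after the data were seen. No paired analysis was possible because each group has 1 library and only 1 has a file used here. Between 7 and 14 fragments at each summit limit every statement.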
